A study of Mus musculus with 2 samples.

Results

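The Ikaros family of zinc finger transcription factors has 5 members in the mouse, Ikzf1 (Ikaros), Ikzf2 (Helios), Ikzf3 (Aiolos), Ikzf4 (Eos) and Ikzf5 (Pegasus). Open chromatin around these 5 genes, of 21938 protein-coding genes in GENCODE M21, was described in spleen from 2 male mice, each aged 2 months. The mice were of strain B6CASTF1/J, F1 offspring of C57BL/6J and CAST/EiJ, untreated as far as the labels say. They form 1 group, so there is no contrast between conditions and no test. They are called animal 1 and animal 2 after the replicate numbers in the labels. The labels give each animal its own biosample but the same donor identifier. A mean ± SD with n = 2 therefore gives the spread between these libraries only. The tissue was whole spleen, in which many cell types are mixed. A low signal from fewer cells with an open site and a low signal from less cutting per cell cannot be told apart. The deposited intervals do not separate the parental alleles, and a difference in how reads of either allele map was not tested.

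DNase I cuts DNA where nucleosomes are displaced, so a peak of cuts marks an accessible promoter or enhancer, and a footprint is a short protected stretch inside it where a protein may have been bound. The genes were found by symbol in the annotation, and all 5 were present. Every peak that touched a gene or the 100 kb on either side was taken from the longer of the 2 peak lists deposited for each library. This gave 106 of 79246 peaks in animal 1 and 100 of 77231 in animal 2. A peak was called promoter when it touched the 1 kb on either side of any transcription start site (TSS) of the member, intronic when it otherwise touched the gene body, and intergenic when it lay in the flanks. Peak height is the deposited signal, whose unit is not stated. Each height was a whole multiple of a step, 0.00716 for animal 1 and 0.00679 for animal 2, to within 0.00704 and 0.00740 of a step. Were heights cuts per M, these steps would mean totals of 139.6 and 147.3 M cuts. The median height was 0.888 in animal 1 and 1.05 in animal 2 over all peaks.

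Ikaros proteins bind DNA through a cluster of N-terminal zinc fingers that reads the core letters TGGGAA, and pair with one another through C-terminal fingers. Ikaros and Aiolos are needed for the development and maturation of lymphocytes, and recruit the NuRD chromatin remodelling complex and other corepressors. Helios and Eos are best known from regulatory T cells, where Eos acts with Foxp3. Pegasus is the most divergent member, prefers other DNA letters and is expressed broadly. In human cells, cereblon, the substrate receptor of a ubiquitin ligase, marks Ikaros and Aiolos for destruction when lenalidomide-type drugs are bound.

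The peaks on which the description of the family turns are printed first. They are the strongest promoter peak of each member that had one, the tallest peak inside the body of Ikzf1 and the tallest peak of Ikzf3 outside protein-coding genes. A further intronic peak of Ikzf1 and of Ikzf4 was added after its values were seen. Sequences are from the RefSeq GRCm38.p6 genome, which has the sequence of mm10, the build of the deposited intervals, and read 5′ to 3′ on the plus strand. Ikzf1 lies on that strand, while the other 4 members lie on the minus strand, so their transcription runs against the printed order. Capitals mark bases that lay in a footprint of both animals, whether or not the footprint's midpoint fell in a called peak. Bases are counted from 1 at the left end.
Ikzf1 promoter (chr11:11686061-11686280): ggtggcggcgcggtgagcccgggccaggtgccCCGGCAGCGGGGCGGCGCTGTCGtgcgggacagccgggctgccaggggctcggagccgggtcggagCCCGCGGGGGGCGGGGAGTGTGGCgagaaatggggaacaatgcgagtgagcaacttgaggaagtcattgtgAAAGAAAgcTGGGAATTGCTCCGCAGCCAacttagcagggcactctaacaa
Ikzf1 mid-gene intronic peak (chr11:11742841-11743020): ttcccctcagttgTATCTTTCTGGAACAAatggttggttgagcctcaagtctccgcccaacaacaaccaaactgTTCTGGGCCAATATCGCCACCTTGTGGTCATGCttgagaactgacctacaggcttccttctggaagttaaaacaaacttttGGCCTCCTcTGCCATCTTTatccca
Ikzf1 3′ intronic peak (chr11:11766221-11766420): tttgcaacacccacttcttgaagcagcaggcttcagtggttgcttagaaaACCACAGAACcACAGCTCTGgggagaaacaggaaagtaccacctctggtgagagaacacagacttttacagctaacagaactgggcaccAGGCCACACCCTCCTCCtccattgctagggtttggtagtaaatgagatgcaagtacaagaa
Ikzf3 promoter (chr11:98545881-98546140): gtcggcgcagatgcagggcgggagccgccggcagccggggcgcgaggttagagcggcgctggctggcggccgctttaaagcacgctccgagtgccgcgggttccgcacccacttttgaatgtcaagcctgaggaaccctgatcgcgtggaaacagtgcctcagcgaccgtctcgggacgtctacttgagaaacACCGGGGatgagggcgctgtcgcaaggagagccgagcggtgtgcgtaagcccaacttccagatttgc
Ikzf3 peak past the 3′ end (chr11:98457881-98458100): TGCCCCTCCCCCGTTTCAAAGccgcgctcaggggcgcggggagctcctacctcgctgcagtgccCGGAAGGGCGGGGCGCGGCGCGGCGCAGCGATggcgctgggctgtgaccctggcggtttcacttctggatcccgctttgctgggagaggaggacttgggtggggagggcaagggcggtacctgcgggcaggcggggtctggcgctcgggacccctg
Ikzf2 promoter at the start site (chr1:69687161-69687360): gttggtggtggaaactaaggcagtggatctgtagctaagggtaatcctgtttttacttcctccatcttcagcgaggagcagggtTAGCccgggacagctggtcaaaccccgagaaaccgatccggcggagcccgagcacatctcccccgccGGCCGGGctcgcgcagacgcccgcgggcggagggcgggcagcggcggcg
Ikzf2 upstream promoter peak (chr1:69687481-69687780): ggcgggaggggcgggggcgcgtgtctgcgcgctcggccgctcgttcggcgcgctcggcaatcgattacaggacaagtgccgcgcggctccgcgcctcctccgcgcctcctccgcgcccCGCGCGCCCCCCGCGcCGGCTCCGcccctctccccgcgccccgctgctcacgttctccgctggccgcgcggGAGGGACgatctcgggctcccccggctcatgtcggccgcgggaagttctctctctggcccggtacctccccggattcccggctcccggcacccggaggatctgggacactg
Ikzf4 intronic peak (chr10:128637101-128637340): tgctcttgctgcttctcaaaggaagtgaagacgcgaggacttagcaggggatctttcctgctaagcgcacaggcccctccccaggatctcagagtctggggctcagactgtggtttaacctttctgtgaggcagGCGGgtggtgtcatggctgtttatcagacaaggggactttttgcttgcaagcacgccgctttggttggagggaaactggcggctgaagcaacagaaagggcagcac
Ikzf5 and Acadsb shared promoter (chr7:131410481-131410700): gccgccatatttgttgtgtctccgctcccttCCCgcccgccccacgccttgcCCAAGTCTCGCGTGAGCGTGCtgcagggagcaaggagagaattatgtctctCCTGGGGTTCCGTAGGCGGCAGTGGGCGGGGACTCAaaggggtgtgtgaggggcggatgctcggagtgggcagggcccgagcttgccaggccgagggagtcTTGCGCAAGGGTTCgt

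Ikzf1 spans chr11:11685003-11772926 (87.9 kb) and has 5 annotated TSS. Its strongest promoter peak, printed above, covers the TSS at 11686213 and 11686229 and touches an exon. Its height was 7.20 in animal 1 and 8.73 in animal 2 (7.97 ± 1.08, SD, n = 2). That placed Ikzf1 at percentile 60.2 and 60.9 among coding genes with a promoter peak, a little above the median promoter heights of 5.62 and 6.63. A promoter peak was present in 61.4% of all coding genes in animal 1, in 62.6% in animal 2 and in 59.8% in both, and 4 of the 5 family members had one in both. The most 5′ TSS of Ikzf1, at 11685003, lay in no peak of animal 1, whose nearest peak began 1058 bp away, and in a peak of height 0.815 in animal 2. The tall promoter peak thus lay at inner start sites in both animals.

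The body of Ikzf1 held the most peaks of the family, with 18 in each animal, or 20.5 per 100 kb, against 6.50 and 6.00 per 100 kb in its flanks. This contrast was not computed for coding genes as a whole. The full domain had 10.8 and 10.4 peaks per 100 kb, at percentiles 80.9 and 80.3 among coding genes. Excluding promoters, 15 merged sites of Ikzf1 in animal 1 and 13 in animal 2 were intronic, 10 of them in both. The tallest lay 81.3 kb downstream of the most 5′ TSS, near the 3′ end of the gene, with a height of 7.40 in animal 1 and 5.32 in animal 2 (6.36 ± 1.47, SD, n = 2). It was slightly taller than the promoter in animal 1 and lower than it in animal 2. Among peaks over 1 kb from every coding TSS it stood at percentile 99.1 in animal 1 and 96.5 in animal 2. The mid-gene peak had a height of 3.32 in animal 1 and 4.58 in animal 2. Another, at chr11:11716881-11717060, had 3.25 and 3.18. In the first 10 kb of the gene there were 3 further intronic sites found in both animals, at chr11:11690221-11690520 (3.02 and 2.34), chr11:11691781-11692020 (2.67 and 1.74) and chr11:11694281-11694480 (2.84 and 2.32). Apart from the 3′ peak, the intronic sites found in both animals stayed below both values of the promoter. Beyond the 3′ end of Ikzf1, the tallest peak of the domain was the promoter of Fignl1, an AAA-type ATPase gene, at 11.6 and 13.7. Inside Fignl1 the tallest peak had 3.82 and 4.92.

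**Figure D1:**
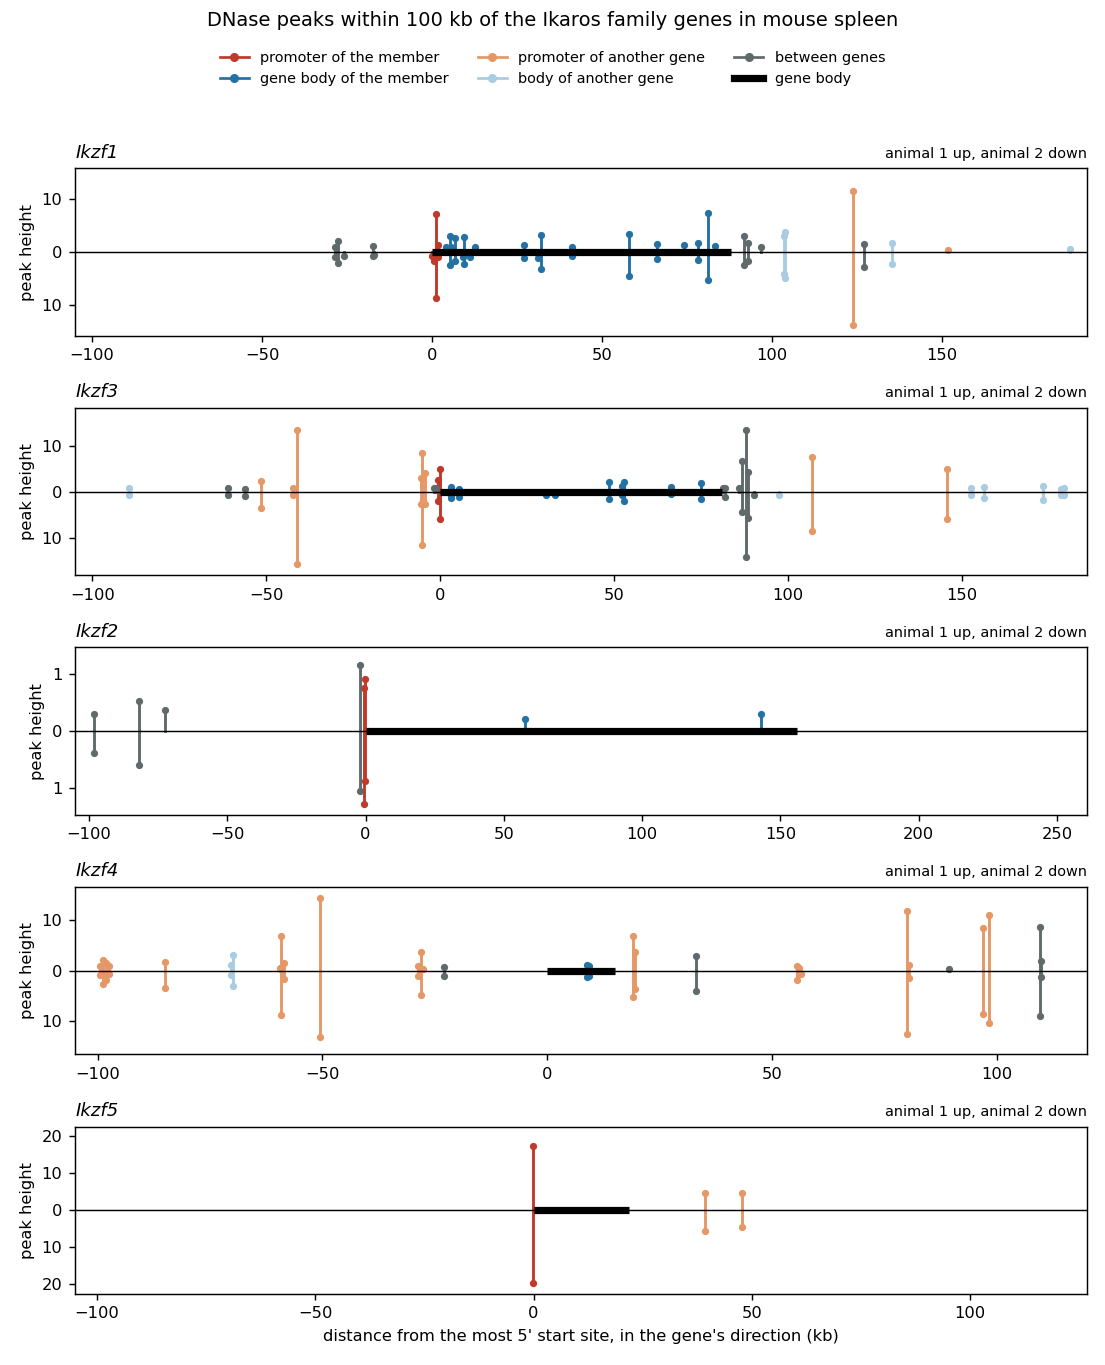
Peak height in animal 1 (up) and animal 2 (down) against the distance in kb of each site from the most 5′ TSS of 5 genes, in the direction of transcription, each panel with its own height scale. Points are merged sites coloured by class and the thick bar is the gene body. The body of Ikzf1 holds the most sites, Ikzf4 has none near its TSS, and the heights of Ikzf2 stay at or below 1.28.

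Ikzf3 spans chr11:98464902-98546031 (81.1 kb) and has 4 TSS. Its promoter peak covers the most 5′ TSS and had a height of 4.83 in animal 1 and 6.05 in animal 2 (5.44 ± 0.864, SD, n = 2), at percentiles 44.8 and 46.7 of open promoters. A smaller promoter peak upstream, at chr11:98546661-98546880, had 2.49 and 1.98. Both animals thus showed the same order of these peaks, and the Ikzf3 promoter was lower than that of Ikzf1 in each. No peak lay within 1 kb of the inner TSS at 98477403 and 98489020. The body held 9 peaks in animal 1 and 11 in animal 2, and no intronic site exceeded 2.08 in animal 1 or 2.04 in animal 2.

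The tallest peaks of Ikzf3 lay outside the gene. Past its 3′ end, 88.0 kb from the most 5′ TSS and nearest to the TSS of Grb7, a signalling adaptor gene, a peak had a height of 13.4 in animal 1 and 14.2 in animal 2 (13.8 ± 0.523, SD, n = 2). It exceeded the Ikzf3 promoter in both animals and stood at percentile 99.8 in each among peaks over 1 kb from every coding TSS. No GENCODE M21 TSS, coding or not, lay within 1 kb of it. Its central 200 bp were 72.0% G and C with 21 CpG, against a median of 58.5% and 10 CpG in the 200 bp around all coding TSS. For all peaks of animal 1 the median was 53.0% and 4 CpG. The neighbours of this tall peak on either side had 4.22 and 5.67 (chr11:98457441-98457680) and 6.55 and 4.43 (chr11:98459261-98459500). All 3 were found in both animals. The promoter of Grb7 itself had no peak in either animal. On the 5′ side, a peak at the promoter of Zpbp2, a gene known for its role in sperm, had 8.42 and 11.7 (chr11:98550961-98551380). The promoter of Ormdl3, a regulator of sphingolipid synthesis, had 13.4 and 15.8. Which gene any of these peaks serves was not measured.

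Ikzf2 spans chr1:69531214-69687245 (156 kb), is the longest gene of the family and has 7 TSS. Its promoter was open but low. The peak at the most 5′ TSS had 0.910 in animal 1 and 0.883 in animal 2 (0.896 ± 0.0191, SD, n = 2), and the peak just upstream had 0.752 and 1.28 (1.01 ± 0.371). The stronger of these differed between the animals. Taking the stronger in each, Ikzf2 stood at percentile 14.3 in animal 1 and 17.4 in animal 2 of open promoters. The remaining 5 TSS had no peak within 1 kb. Another site lay 1956 bp upstream, with 1.16 and 1.05, and farther upstream lay chr1:69768841-69769120 (0.537 and 0.591) and chr1:69785265-69785380 (0.308 and 0.380). The long gene body was nearly empty by comparison. It held 2 intronic peaks in animal 1, of height 0.301 and 0.222, and none in animal 2. In cut equivalents, on the reading above, those peaks held 42 and 31 cuts, so they rest on few cuts. The domain had 2.25 peaks per 100 kb in animal 1 and 1.40 in animal 2, at percentiles 25.4 and 19.1 among coding genes.

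Ikzf4 spans chr10:128630843-128645991 (15.1 kb) and also has 7 TSS. It was the only member with no promoter peak in either animal. Within 1 kb of its TSS, 0 footprints and 0 intervals with a cut-rate false discovery rate under 0.05 were listed in either library, and the nearest peak was 7308 bp away. The 200 bp around its most 5′ TSS were 60.0% G and C with 8 CpG, close to the median of coding genes. The gene held a pair of intronic peaks, found in both animals. The printed one had 1.07 in animal 1 and 1.35 in animal 2 (1.21 ± 0.196, SD, n = 2). The other touched an exon and had 0.824 and 1.12. The 30 and 28 peaks counted for this gene therefore belong mostly to its surroundings. Of the 31 merged sites, 22 lay at promoters of 10 other genes, among them Rab5b (14.4 and 13.1), Pa2g4 (11.9 and 12.6) and Zc3h10 (11.0 and 10.4). These encode an endosomal GTPase, a proliferation-associated RNA-binding protein and a zinc finger protein. Peak density around Ikzf4, 13.9 and 13.0 per 100 kb, was at percentiles 90.9 and 88.5 among coding genes, whose medians were 5.48 and 5.26.

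Ikzf5 spans chr7:131388652-131410521 (21.9 kb), with 7 TSS, and had the tallest promoter of the family. Its height was 17.3 in animal 1 and 19.6 in animal 2 (18.4 ± 1.63, SD, n = 2), at percentiles 95.9 and 96.0 of open promoters. The peak lies between Ikzf5 and Acadsb, a mitochondrial acyl-CoA dehydrogenase gene transcribed the other way, whose TSS is 80 bp from that of Ikzf5. How much of the height belongs to either gene cannot be told apart. No other peak lay in the gene. The remaining peaks of the domain were the promoters of Pstk, a kinase of selenocysteine synthesis (4.71 and 5.52), and 2310057M21Rik (4.51 and 4.64). With 3 peaks in each animal, the domain had 1.35 per 100 kb, at percentiles 19.3 and 18.7. A very open promoter thus stood in a sparse neighbourhood.

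**Figure D2:**
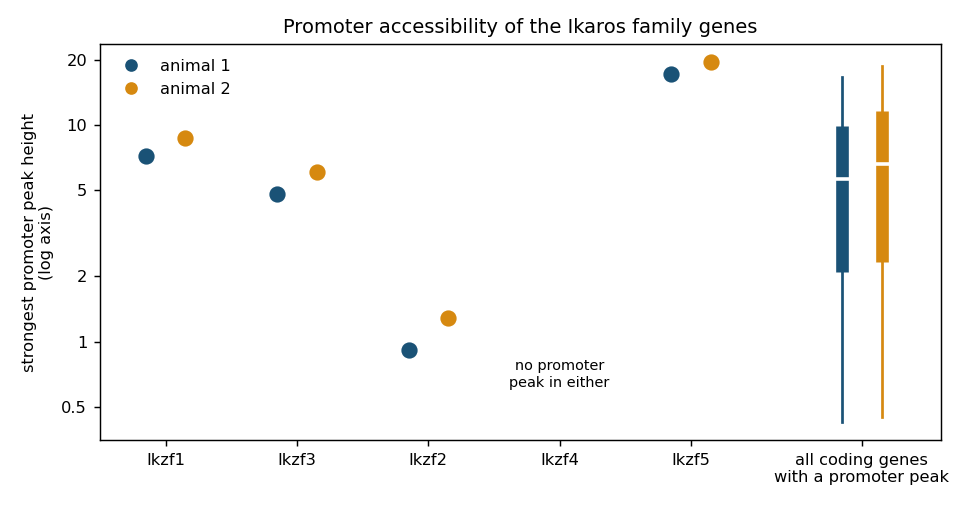
Height of the strongest promoter peak (log axis) of each family member in animal 1 (left point) and animal 2 (right point). The bars on the right show all coding genes with a promoter peak, with a box over the middle quartiles, a line that leaves out the lowest and the highest twentieth of genes, and a white mark at the median. Ikzf5 lies near the top at 17.3 and 19.6, Ikzf2 near the bottom at 0.910 and 1.28, and Ikzf4 has no promoter peak.

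In both animals the order of promoter heights was Ikzf5, Ikzf1, Ikzf3, Ikzf2, with Ikzf4 not listed. The values of neighbours in that order did not overlap between genes. How often this holds for pairs of other coding genes was not computed, so the lack of overlap does not set these genes apart. In counts of peaks the order was different, with 34 and 34 for Ikzf3, 31 and 30 for Ikzf1, 30 and 28 for Ikzf4, 8 and 5 for Ikzf2 and 3 and 3 for Ikzf5. Only Ikzf1 and Ikzf3 had more than 2 intronic sites, a count that does not allow for gene length. Per 100 kb of gene body, promoters included, Ikzf4 had 13.2 peaks in each animal, from 2 peaks. Ikzf3 had 11.1 in animal 1 and 13.6 in animal 2. Split by the classes above, the family had 7 promoter, 28 intronic and 71 intergenic peaks in animal 1 and 9, 26 and 65 in animal 2. Merged over the animals these were 117 sites, of which 9 were promoters of a member, 32 lay in its body, 34 at promoters of other coding genes, 13 in bodies of other genes and 29 between genes. Only 3 of the 32 intronic sites touched an exon.

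**Figure D3:**
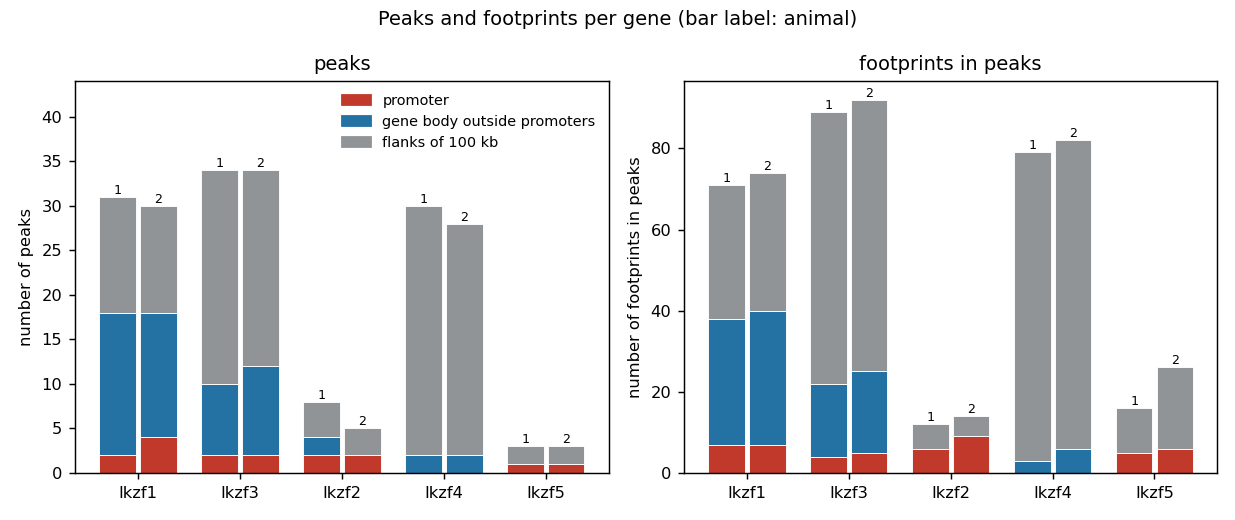
Number of peaks (left) and of footprints with their midpoint in those peaks (right) per gene, as stacked bars for animal 1 and animal 2, coloured by class. Flanking peaks make up 28 of 30 peaks of Ikzf4 in animal 1 and 26 of 28 in animal 2, while Ikzf1 has more peaks in its body than in its flanks.

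Most peaks at these genes were listed in both animals. Of the peaks in animal 1, 88 of 106 (83.0%) overlapped a peak of animal 2, against 76.5% of all its peaks. Of those in animal 2, 87 of 100 (87.0%) overlapped a peak of animal 1, against 79.0%. Both shares, which include the flanks, were a little above their background. For gene bodies alone the share averaged over the animals was 78.8%, near the backgrounds. The 18 sites listed in animal 1 only reached at most 1.27, and the 13 listed in animal 2 only reached at most 1.76. That tallest site of animal 2 was a promoter peak of Ikzf1 at chr11:11685361-11685780. In the library that lacked the peak, 4 of those 18 and 6 of those 13 sites still overlapped an interval with a false discovery rate under 0.05. For the other members the tallest site listed in a single animal had 0.802 (Ikzf3, animal 1), 0.372 (Ikzf2, animal 1) and 0.638 (Ikzf4, animal 2). Ikzf5 had none.

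Heights were compared at the 84 sites where 1 peak of each animal matched. The median log2 ratio of animal 1 over animal 2 was −0.08, ranging from −1.01 to 0.78, while over all 58277 matched peaks the median was −0.23 with an SD of 0.409. A difference over 2-fold occurred at 1 of the 84 sites, against 2.41% of all matched peaks. That site was a promoter peak of Dgka in the flank of Ikzf4, with 1.73 in animal 1 and 3.47 in animal 2. By gene the medians were 0.15 for Ikzf1, −0.16 for Ikzf3, −0.14 for Ikzf2, −0.08 for Ikzf4 and −0.18 for Ikzf5. At Ikzf1, flanks included, 13 of 21 matched sites were higher in animal 1. The numbers were 12 of 30 for Ikzf3, 2 of 5 for Ikzf2, 9 of 25 for Ikzf4 and 0 of 3 for Ikzf5. The strongest promoter peak of Ikzf1 was lower in animal 1. The share over all matched peaks was not computed, so whether 13 of 21 is unusual cannot be said. With 1 library for each animal these differences have no replicate check.

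**Figure D4:**
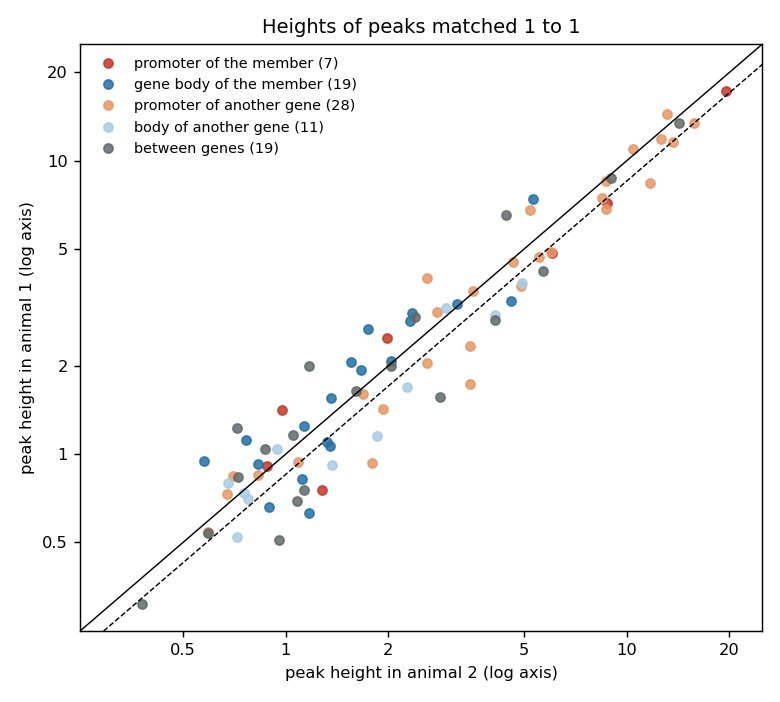
Peak height in animal 1 against animal 2 (both log axes) at the 84 matched sites, coloured by class, with the number of sites in the legend. The solid line marks equal heights and the dashed line the median ratio of all matched peaks, −0.23 on the log2 scale. Most sites lie close to the lines over the whole range of heights.

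Footprints were counted in the same peaks by their midpoint. The family's peaks held 267 footprints in animal 1 and 288 in animal 2. At least 1 footprint lay in 85.8% of these peaks in animal 1 and in 95.0% in animal 2, against 81.4% and 83.5% of all peaks. Of the footprints, 63.7% in animal 1 and 58.3% in animal 2 overlapped a footprint of the other animal, close to the backgrounds of 60.4% and 57.4%. Footprints carry no score in the files and so cannot be ranked.

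In the Ikzf1 promoter, 74 of 220 bases lay in footprints of both animals. The core letters TGGGAA occurred there once on the plus strand, at bases 179 to 184 (chr11:11686239-11686244), wholly inside a footprint of each animal. For the motifs, every footprint that reached into a peak was used, wherever its midpoint lay. Such a match inside shared footprints was found in 2.18% of 20896 matched peaks at coding promoters, in 1.29% of 37381 other matched peaks and in 3 of the family's 84 matched sites. The same promoter held CCCNNGGG, an EBF-like motif, at bases 99 to 106, and GGGCGGGG, an SP/KLF motif, directly after it at bases 107 to 114. Both lay wholly in shared footprints. The EBF-like letters were in shared footprints of 2.88% of promoter peaks, of 1.39% of other peaks and of 1 of the family's 84 sites. A GAGGAAGT, as read by PU.1-like ETS factors, lay at bases 155 to 162 outside the footprints of both animals.

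The 3′ intronic peak of Ikzf1 had no CpG, and 36 of its 200 bases lay in shared footprints. It held TGTGGT, the RUNX core, at bases 51 to 56 and 59 to 64, both on the minus strand, so that the printed letters are ACCACA. The first was wholly footprinted in both animals, and the other missed 1 base in animal 1. The mid-gene peak also held TGTGGT, at bases 97 to 102, wholly inside a shared footprint. RUNX letters in shared footprints were found in 0.794% of promoter peaks, in 2.41% of other peaks and in 4 of the family's 84 sites. The peak past the 3′ end of Ikzf3 and the promoter of Ikzf5 each held GGGCGGGG wholly in shared footprints, at bases 70 to 77 and 127 to 134. In animal 1 the called peak past the 3′ end of Ikzf3 was narrow (chr11:98457901-98457960), and no footprint had its midpoint in it, so that the footprint there reached in from outside. The SP/KLF motif was in shared footprints of 14.2% of promoter peaks, of 1.35% of other peaks and of 9 of the family's 84 sites. In the Ikzf3 promoter 7 of 260 bases were footprinted in both animals, and none of the motifs searched was in the printed window. In the promoter peaks of Ikzf2, matches to GAGGAAGT, CCCNNGGG and GGGCGGGG lay outside the footprints of both animals, and CAGCTG had 1 base in a footprint of animal 2. The TGTGGT of the printed Ikzf4 peak lay outside them as well.

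In all, 12 sets of letters were searched on both strands. Besides the Ikaros, PU.1-like, RUNX, EBF-like and SP/KLF letters given above, these were the common ETS form CCGGAAGT, the letters TGANTCA of AP-1 factors, the E-box sequence CAGCTG, the interferon regulatory factor letters GAAANNGAA, the NF-kB letters GGNNTTTCC, the NRF1 letters GCGCATGCG and the CTCF core AGGGGGCG. Both ETS forms end in the same letters, and the sets were counted separately. In the central 200 bp of the sites, TGGGAA was present in 26 of 117 sites (22.2%), against 16.7% of all peaks in animal 1, 16.6% in animal 2 and 16.2% of windows around coding TSS. By gene these were 9 sites of Ikzf1, 9 of Ikzf3, 6 of Ikzf4 and 1 each of Ikzf2 and Ikzf5. CAGCTG was present in 20.5% of sites, against 15.2% and 15.6% of all peaks and 12.3% of TSS windows. TGTGGT was present in 18.8% of sites, against 17.5% and 16.3% of peaks and 9.94% of TSS windows. GAGGAAGT was present in 6.84% of sites, against 5.61% and 4.65% of peaks, and 5 of its 8 sites were around Ikzf1. Other motifs were in a smaller share of sites than of peaks. CCCNNGGG was present in 5.98% of sites, against 10.8% and 11.7% of peaks. The IRF letters were present in 3.42%, against 6.24% and 5.28%. The AP-1 letters were also in 3.42%, against 5.84% and 5.22%, and all 4 of those sites were around Ikzf1. The NF-kB and CTCF letters, each in 3.42% of sites, were below both peak shares as well (4.76% and 4.39% for NF-kB, 4.80% and 5.34% for CTCF). GGGCGGGG was in 9.40% of sites, against 8.79% and 9.82% of peaks. CCGGAAGT was in 2.56%, against 1.88% and 1.97%, and the NRF1 letters in 1.71%, against 0.804% and 0.860%. A match of letters describes the sequence and does not show binding.

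Every listed corepressor and ligase gene was open in both animals, while the listed targets were open about as often as coding genes in general. Both animals had a promoter peak at each of the 17 listed genes of NuRD and other corepressors, against 59.8% of all coding genes. The median height of those 17 genes was 10.9. The median over coding genes open in both was 6.42. Gatad2a, a NuRD scaffold subunit, was the highest with 22.7 in animal 1 and 27.1 in animal 2, and Ctbp2, a corepressor, was the lowest with 0.874 and 0.889. The NuRD ATPases differed, as Chd4 had 8.94 and 11.3 while Chd3 had 1.35 and 1.51. All 5 genes of the cereblon ligase were open as well, with a median of 12.2. Ddb1, its adaptor, had 16.3 and 20.1, Cul4b, a scaffold, had 4.96 and 5.60, and Crbn itself had 7.26 and 9.68. Of 16 lymphoid genes known as targets of the family, 10 (62.5%) were open in both animals, a share near the 59.8% of all coding genes. By the mean of both animals Pax5, the B cell identity factor, was the highest (11.4 and 13.0), although Ebf1, another B cell factor, had 11.5 and 10.3. The lowest was Cd8a, a T cell coreceptor gene (0.652 and 0.876). Foxp3, the regulatory T cell factor with which Eos acts, had 8.12 and 10.1. The genes of antigen receptor recombination in precursors, Rag1, Rag2 and Dntt, had no promoter peak in either animal, nor had Vpreb2 of the surrogate light chain or Il2, a T cell cytokine. Igll1 had 0.489 in animal 2 only.

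Markers were read for the label of the tissue. The 6 B cell genes were open in both animals (median 9.23), as were the 6 T cell genes (median 2.87). Of all coding genes 59.8% were open in both, with a median of 6.42, so the T cell median lay below it. By mean height Cr2, a complement receptor gene, led the B cell list (12.0 and 12.9) and Ms4a1 (CD20) closed it (5.23 and 3.08). Lck, a T cell kinase gene, led the T cell list by its mean (5.02 and 6.96), while Cd3d had 6.22 and 5.22. Cd3e had the lowest value there (0.838 and 0.930). Of 5 macrophage genes 2 were open in both, and Adgre1 and Mrc1 had no promoter peak. Of 7 genes of liver, acinar pancreas and skin, only Cela1 had a promoter peak, of 3.79 and 5.49. The part of the mix of cell types in the values of the family was not tested.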

How the data were processed

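DNase-seq was made from spleens of 2 animals, 1 library each. Reads were aligned to mm10 and peaks, footprints and cut-rate intervals were called library by library, without pooling, per the deposited file listings. Not given in the sources used here are the aligner, the callers and their thresholds. For each library there are 2 deposited peak lists, whose height is a signal of unstated unit. Heights were compared between animals without rescaling. No counting error was attached to them, because cut totals could only be inferred. The authors' cut-rate files hold a q-value per interval and list only values under 0.05. Their footprint files hold the constant 0.01 in the p-value column.

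Intervals were overlapped (1 bp or more) with GENCODE M21 genes in Python 3.11.15, and sequences were read with an index from samtools 1.23.1. The overlap functions were tested on simulated data. Each footprint was counted once, by its midpoint, while motif matches used every footprint that reached into a peak. The genes, lists, motifs and alternatives were chosen with earlier results of these data known. Named by rule were, per member, the strongest promoter peak, the 3 tallest other peaks matched 1 to 1 and the tallest found in 1 animal, and, per list, the highest and lowest genes and those without a promoter peak. Other peaks with values, and Chd3, Chd4, Crbn, Foxp3, Ebf1 and Cd3d, were named after their values were seen. Alternatives were the shorter peak list, the higher 50% of peaks, other flanks and promoter windows, another overlap rule, and leaving out each animal.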

Additional observations from a re-analysis of the deposited data

Results flagged for a closer look

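Footprints with their midpoint outside called peaks were left out of the counts above, though those that reached into a peak entered the capitals and motif matches. The domains of 4 members held some in both animals. There were 10 in animal 1 and 17 in animal 2 around Ikzf1, 21 and 31 around Ikzf3, 38 and 22 around Ikzf4, and 8 and 4 around Ikzf5. They drew notice because they lie where no peak was listed. Such footprints are part of the deposited lists as a whole, since 84.9% of all footprints in animal 1 and 83.6% in animal 2 had their midpoint in a peak. The share outside peaks was larger in the family's domains. There, 77 footprints lay outside peaks beside 267 inside in animal 1, and 76 beside 288 in animal 2. The reason was not tested.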

How the results depend on the processing

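Values below are family totals, or medians over members, averaged over the animals. Taking gene bodies in place of 100 kb flanks lowered the number of peaks to 33, against 103, and the footprints to 73, against 277.5. The share of peaks found in the other animal fell to 78.8%, against 85.0%. The strongest height outside the member's own promoter was 1.81 with gene bodies and 6.15 with flanks of 50 kb, against 12.3. With 100 kb flanks that height was at a promoter of another gene for Ikzf1 (Fignl1), Ikzf4 (Rab5b) and Ikzf5 (Pstk), and in animal 2 for Ikzf3 (Ormdl3). The shorter peak lists gave a share of 90.6%. With the most 5′ TSS only, the promoter height was 4.37, against 6.70, and Ikzf1 lacked a promoter peak in animal 1. Subtracting the median of all matched peaks moved the median log2 ratio of animal 1 over animal 2 to 0.15, against −0.08, so its sign depends on that scaling. Leaving out either animal gave 100 to 106 peaks, 7 to 9 of them at promoters, and promoter heights of 6.01 to 7.39. The strongest heights outside the members' own promoters were then 11.6 to 13.1. There were 267 to 288 footprints and 32 to 33 open partner and target genes of 38. Of 43 alternatives for the family 35 stayed within the limits set, as did 86 of 106 for single genes. The limit was a fixed fold change for counts, the SD between the animals for heights and shares, and a fixed difference for the log2 ratio. Leaving out an animal shifts a mean height by less than that SD. For heights it therefore stayed within the limit by construction, and these cases are part of the counts. No paired analysis was possible because both animals belong to 1 group. With 2 libraries and no stated cut totals, differences in low peaks between the animals cannot be judged.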
